A study of Mus musculus with 8 samples.

Results

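The genes of 10 ion channels of microglia and other glial cells were examined in 8 RNA sequencing libraries from primary cultures of activated mouse microglia. The genes were Kcna3, Kcnn4, Kcnj2, Kcnk13, Kcnk6, Hvcn1, Kcnj10, Trpv2, Trpm2 and Clic1. They were taken by gene symbol and joined by gene identifier, and all 10 of them were found among the 31406 genes of the deposited table. The cultures were prepared from the striatum of neonatal wild-type (WT) C57/BL6 pups and were kept for 15 days. For all 8 libraries the cells were activated for 48 h with lipopolysaccharide (LPS, 0.01% v/v) and interferon-γ (0.002% v/v). The methods of the study name human interferon-γ. By their titles, 4 libraries had received SCH 58261, an antagonist of the adenosine A2A receptor (A2A antagonist group), and 4 had received SCH 58261 with 200 nM 2-Cl-IB-MECA, an agonist of the adenosine A3 receptor (dual group). Ligands were added at 24, 32 and 40 h. The treatment field of the labels names 2-Cl-IB-MECA in the opposite 4 libraries, so the direction of each difference rests on the titles, which the names of the deposited count columns match. The methods of the study give fewer replicates for ligand-treated cells than the 4 libraries per group of the titles. The legend of its first figure gives 4 for ligand-treated cells, as the titles do. Nothing in the labels says that the 4 libraries of a group came from separate animals or cultures, so p-values measure the spread between these libraries. Vehicle libraries were not analysed here.

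Ion channels set the membrane potential of microglia and with it the entry of calcium. Kir, K2P, Kv and calcium-activated potassium channels carry potassium out of the cell or hold the resting potential, the proton channel removes the acid that the NADPH oxidase leaves in the cytosol, and cation channels of the TRP family let calcium in. The Kir channel of Kcnj10 is best known from astrocytes, where it takes up the potassium that active neurons release.

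The total count was between 32630602 and 45878639 per library, and 26155 to 26809 genes were detected. Each of the 10 genes had counts in all 8 libraries, from 62 to 93 counts per library for Kcnn4 up to 18959 to 28478 for Kcnj10. Levels between genes are given as FPKM, the authors' deposited fragment counts divided by gene length and by library size, and levels of a gene between libraries as CPM, counts divided by the total of the library, which was scaled with TMM factors.

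The labelled cell type was compared with marker genes. All 12 microglia markers were detected, and their FPKM summed to 635 to 712 in the A2A antagonist libraries and 589 to 625 in the dual libraries. Within this list C1qa, a subunit of complement C1q, had a mean of 420 FPKM and Itgam, which encodes the CD11b that the study used to check purity, 25.1 FPKM, while P2ry12 and Tmem119, markers of resting microglia, had 0.715 and 3.18 FPKM. The 12 astrocyte markers were also all detected and summed to more, 1418 to 1481 FPKM with the antagonist and 1431 to 1507 FPKM with both ligands. The highest were Gfap, an intermediate filament protein, with a mean of 390 FPKM, Mlc1 with 302 FPKM and the water channel gene Aqp4 with 256 FPKM. Fibroblast markers summed to 360 to 406 FPKM with the antagonist and 368 to 454 FPKM with both ligands. Oligodendrocyte lineage markers summed to 227.7 to 243.9 FPKM with the antagonist and 208.5 to 227.5 FPKM with both ligands, ranges that did not overlap. Over the 8 libraries mural cell markers summed to 59.8 to 69.9 FPKM. Neuronal markers summed to 16.0 to 17.3 FPKM and endothelial markers to 9.09 to 11.99 FPKM, and the neuronal marker Rbfox3 was near 0, with 0.0275 FPKM. Markers of astrocytes, fibroblasts and oligodendrocyte lineage cells were thus detected beside those of microglia, and the cell in which a channel gene was expressed cannot be told from these bulk libraries. Fewer cells of a type and less RNA per cell cannot be told apart either. Sums over different genes do not give the shares of the cell types, and the study reported a high purity of microglia by CD11b labelling.

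**Figure D1:**
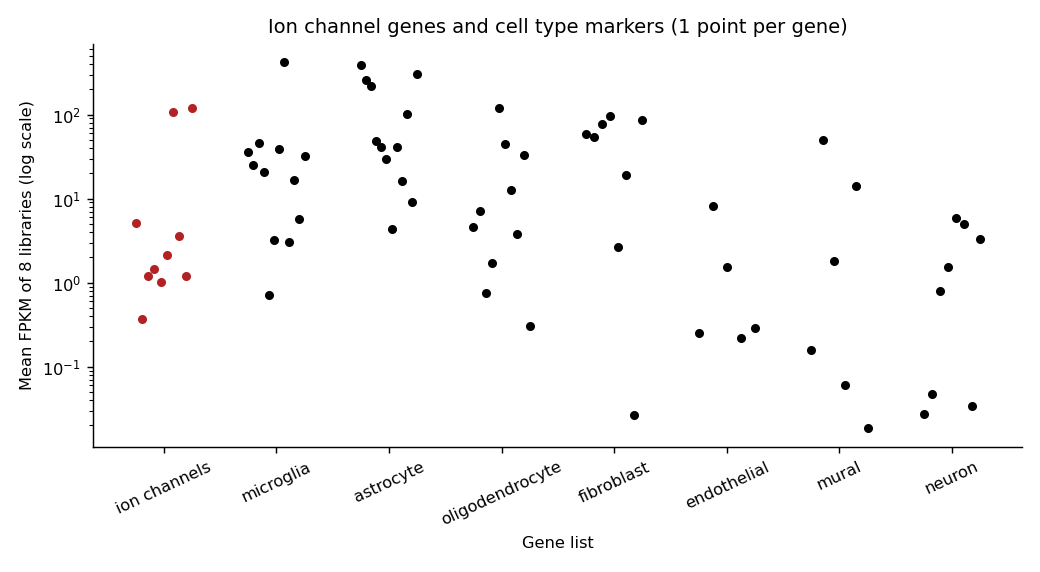
Mean FPKM over the 8 libraries (log axis) of the 10 ion channel genes (red) and of the marker genes of 7 cell types (black), 1 point per gene listed in the table. The astrocyte markers reach 390 FPKM, and 8 of the ion channel genes lie under 6 FPKM.

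RefSeq promoter sequences (GRCm38.p6, 250 bases before to 50 bases after the start) were found for 8 of the 10 genes. A set of 3 motifs was searched on both strands: the GC box GGGCGG bound by Sp1, the word GAGGAAGT bound by PU.1, which is the lineage factor of microglia, and the AP-1 site TGANTCA. The GC box was present in 6 of the 8 promoters and in 35.7% of the 32851 promoters of the table. The PU.1 word was present in 1 of the 8 (3.20% of all promoters) and the AP-1 site in 1 of the 8 (7.81%). The promoters of Clic1 and Kcnj10 are shown because these genes had the highest levels of the set, and that of Trpv2 because it was the promoter with the PU.1 word. The table held 3 windows for Trpv2, and the window nearest to the start of the gene in the deposited table was taken, here and for the other genes. Capitals mark the motifs on either strand.
Clic1, chr17:35049993-35050292, plus strand: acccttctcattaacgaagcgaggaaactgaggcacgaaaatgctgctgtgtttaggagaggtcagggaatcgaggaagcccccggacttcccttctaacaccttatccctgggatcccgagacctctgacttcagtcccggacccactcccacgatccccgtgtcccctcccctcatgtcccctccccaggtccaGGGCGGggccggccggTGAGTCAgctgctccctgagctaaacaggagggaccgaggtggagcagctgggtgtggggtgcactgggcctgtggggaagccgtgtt
Kcnj10, chr1:172340960-172341259, plus strand: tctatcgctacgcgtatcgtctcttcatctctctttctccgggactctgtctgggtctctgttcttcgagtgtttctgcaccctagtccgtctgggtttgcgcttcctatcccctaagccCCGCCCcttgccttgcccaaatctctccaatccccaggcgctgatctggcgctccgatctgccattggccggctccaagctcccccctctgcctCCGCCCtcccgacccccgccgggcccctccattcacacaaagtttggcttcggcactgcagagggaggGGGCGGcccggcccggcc
Trpv2, chr11:62574236-62574535, plus strand: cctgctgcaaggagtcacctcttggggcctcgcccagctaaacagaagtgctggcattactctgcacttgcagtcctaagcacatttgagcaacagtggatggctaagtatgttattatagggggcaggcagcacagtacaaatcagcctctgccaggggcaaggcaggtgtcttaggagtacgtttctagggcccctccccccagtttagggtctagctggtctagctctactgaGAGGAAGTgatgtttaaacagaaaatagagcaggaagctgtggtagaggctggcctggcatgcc
The Clic1 promoter held 1 GC box and the AP-1 site next to each other, the Kcnj10 promoter held 3 GC boxes, and the Trpv2 promoter held no GC box. The share of G and C was 62.0% for Clic1, 63.7% for Kcnj10 and 53.0% for Trpv2, and the Trpv2 promoter had only 2 CG pairs where Kcnj10 had 21 and Clic1 had 14. A motif match describes these letters and is not a binding site shown by the data.

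The levels of the 10 genes fell into a high pair and a low remainder. Clic1, which encodes the chloride intracellular channel CLIC1, had 120 ± 4.36 FPKM (SD over 8 libraries), and Kcnj10 had 109 ± 3.77 FPKM. Of the 18756 genes tested, 98.3% had a lower mean FPKM than Clic1 and 98.1% a lower mean than Kcnj10. The other 8 genes lay between 0.274 and 5.88 FPKM in every library. Kcna3 followed with 5.07 ± 0.523 FPKM, Trpv2 with 3.60 ± 0.309 FPKM and Hvcn1 with 2.15 ± 0.285 FPKM. Below them Kcnk13 had 1.45 ± 0.136 FPKM, Kcnj2 had 1.205 ± 0.088 FPKM, Trpm2 had 1.202 ± 0.108 FPKM, and Kcnk6 had 1.02 ± 0.0682 FPKM. Kcnn4 was the lowest, with 0.367 ± 0.0574 FPKM, and 15.5% of the genes tested had a lower mean. The level of Hvcn1 and its place among the 10 genes are uncertain, because 44.2% of its exonic bases overlap exons of Tctn1.

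Of the 9 pairs of neighbours in this order, 5 had ranges over the 8 libraries that did not overlap. The step from Kcnj10 to Kcna3 was the largest of the 9, 21.5 times in the means. The ranges of Clic1 and Kcnj10 overlapped, although Clic1 was the higher in 8 of 8 libraries. The ranges of Kcnk13 and Kcnj2, of Kcnj2 and Trpm2 and of Trpm2 and Kcnk6 overlapped as well, with the first of the pair higher in 6, 5 and 8 of the 8 libraries. The order of Kcnj2 and Trpm2 was therefore not resolved, while the ranges of Kcnk13 (1.27 to 1.59 FPKM) and Kcnk6 (0.934 to 1.13 FPKM) were apart. Among the 6 potassium channel genes Kcnj10 alone made up 91.6% to 92.9% of the summed FPKM of a library. The order depends on the length used: with CPM per kilobase of the longest coding transcript in place of the merged exons, Trpv2 (5.60) came before Kcna3 (5.11), and Trpm2 (2.08) came before Kcnk13 (1.48) and Kcnj2 (1.21). On that scale the ranges of Clic1 (137 to 154) and Kcnj10 (103 to 116) were apart. Kcnn4 (0.950) again had the lowest mean, but its range (0.707 to 1.146) overlapped that of Kcnk6 (0.9585 to 1.158).

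**Figure D2:**
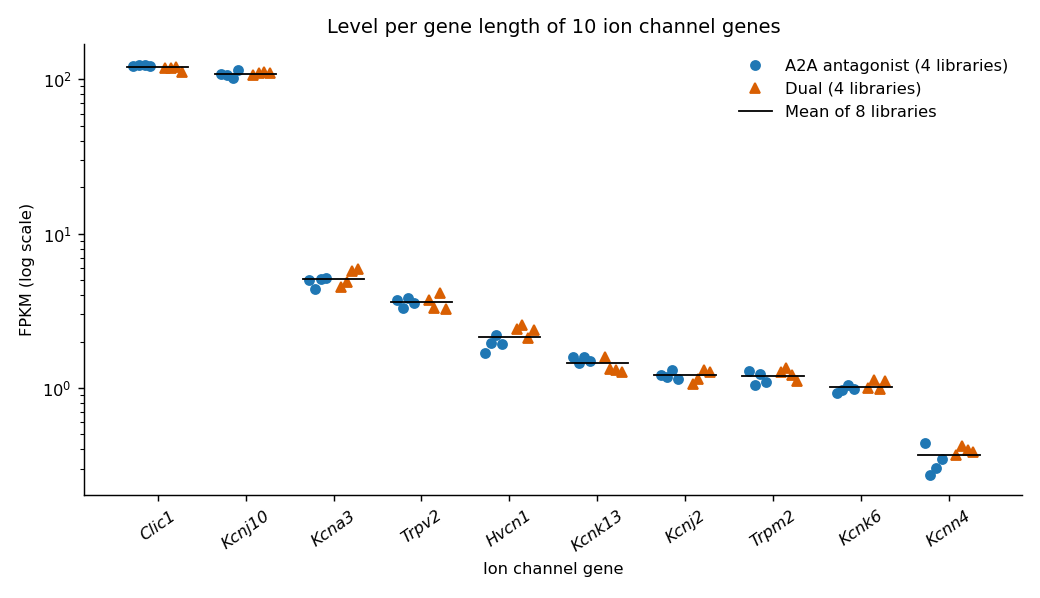
FPKM (log axis) of the 10 ion channel genes in the 4 A2A antagonist libraries (circles) and the 4 dual libraries (triangles), with the mean of the 8 libraries as a line. Clic1 and Kcnj10 lie above 100 FPKM and the other 8 genes under 6 FPKM in every library.

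It was then asked whether the agonist of the A3 receptor altered transcript levels of these channels when given on top of the A2A receptor antagonist. All 10 genes passed the low-count filter, and 0 of the 10 reached the adjusted threshold of 0.05 in edgeR's quasi-likelihood test with Benjamini-Hochberg adjustment over 18756 genes. Of all genes tested 0.208% were called, 0.048% as higher and 0.16% as lower in the dual group, and 0.00533% also differed by more than 1.5-fold. Without adjustment 2 of the 10 passed 0.05, Hvcn1 (higher in the dual group) and Clic1 (lower), where 12.8% of all genes passed, 5.98% as higher and 6.81% as lower. The DESeq2 Wald test also passed 2 of the 10 without adjustment, where it passed 11.4% of the genes past the low-count filter. It gave an adjusted p-value to only 2 of the 10, Clic1 and Kcnj10, and called neither, where 4.7% of the genes with an adjusted p-value were called. Fitted values were higher in the dual group for 7 genes and lower for 3. The median log2 fold change was 0.05 over the 10 genes and 0.0038 over all genes tested. For all 10 genes the 95% interval lay within 1.5-fold in either direction. Each interval is for its own gene and is not adjusted for the number of genes. The narrowest interval, that of Kcnj10, reached 1.06-fold, and the widest, that of Kcnn4, reached 1.48-fold.

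**Figure D3:**
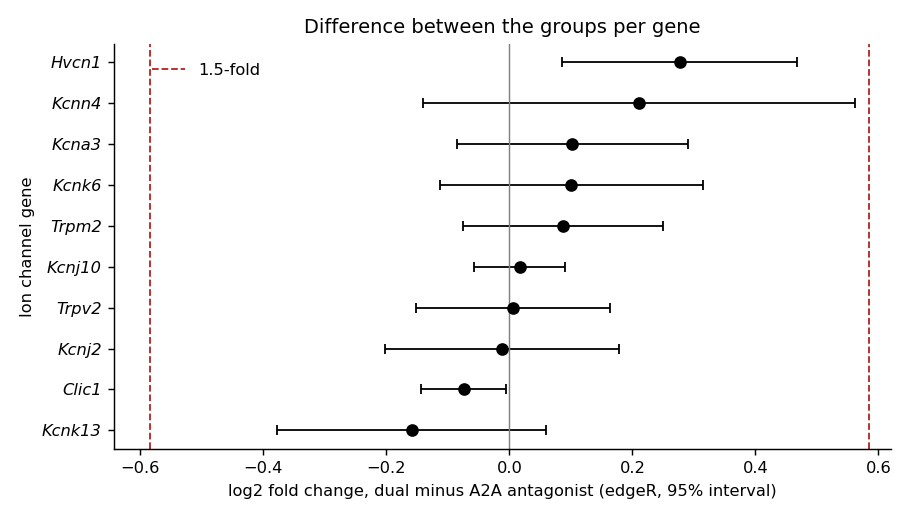
Log2 fold change (dual over A2A antagonist) for each of the 10 genes, with the 95% interval of edgeR's quasi-likelihood fit (4 libraries per group). Every interval lies inside the dashed lines at 1.5-fold, and those of Hvcn1 and Clic1 leave out 0.

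The inward rectifiers are represented by Kcnj10 and Kcnj2. Kcnj10 (ENSMUSG00000044708, chromosome 1, 172341210 to 172374085, GRCm38) had 592, 583, 557 and 627 CPM with the antagonist and 581, 600, 609 and 597 CPM with both ligands. The dual libraries lay inside the range of the A2A antagonist libraries. Its log2 fold change was 0.02 (SE 0.04, 95% interval -0.06 to 0.09), with an adjusted p-value of 0.895 in edgeR and p = 0.686 in the exact permutation test (70 ways to divide the 8 libraries). Kcnj2 (ENSMUSG00000041695, chromosome 11, 111066164 to 111076821), whose channel carries an inward current in microglia, had 6.66, 6.49, 7.15 and 6.30 CPM with the antagonist. With both ligands it had 5.79, 6.33, 7.17 and 6.97 CPM. The groups overlapped, and the log2 fold change was -0.01 (SE 0.09, 95% interval -0.20 to 0.18, edgeR adjusted p-value 0.977). Both genes lay so close to 0 that leaving out 1 library could change the sign. Kcnj16, whose product forms channels together with that of Kcnj10, had 4.74 ± 0.746 CPM in the A2A antagonist group and 4.92 ± 0.770 CPM in the dual group (SD, n = 4), and is named here after its values were seen.

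Kcna3 and Kcnn4 encode the voltage-gated and the calcium-activated potassium channel that are both known from activated microglia and T cells. Kcna3 (ENSMUSG00000047959, chromosome 3, 107036169 to 107038070, a single exon) had 9.59, 8.33, 9.76 and 9.91 CPM with the antagonist and 8.64, 9.36, 10.9 and 11.3 CPM with both ligands. The 2 highest libraries were dual libraries, but the other dual libraries lay inside the range of the first group. The log2 fold change of Kcna3 was 0.10 (SE 0.09, 95% interval -0.09 to 0.29), with an adjusted p-value of 0.686 in edgeR. Kcnn4 (ENSMUSG00000054342, chromosome 7, 24370263 to 24386690) had 2.28, 1.41, 1.56 and 1.78 CPM with the antagonist and 1.90, 2.18, 2.03 and 1.99 CPM with both ligands. The highest library of Kcnn4 was replicate 1 of the A2A antagonist group, while the other 3 of that group were the lowest of the 8. Its log2 fold change was 0.21 (SE 0.17, 95% interval -0.14 to 0.56, edgeR adjusted p-value 0.647), and 0.35 without that library (adjusted p-value 0.344). Counting error alone gives a coefficient of variation of 11.3% at the depth of Kcnn4, where 21.8% was seen among the A2A antagonist libraries and 5.82% among the dual libraries.

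Kcnk13 and Kcnk6 encode K2P potassium channels, which leak at rest. The channel of Kcnk13 carries the resting potassium conductance of microglia. Kcnk13 (ENSMUSG00000045404, chromosome 12, 99964499 to 100062682) had 5.00, 4.53, 4.95 and 4.67 CPM with the antagonist and 5.00, 4.15, 4.10 and 3.97 CPM with both ligands. In the dual group 3 libraries were below all A2A antagonist libraries and replicate 1 was at the top of their range. The log2 fold change was -0.16 (SE 0.10, 95% interval -0.38 to 0.06), the largest fall of the 10 fitted values, with an adjusted p-value of 0.558 in edgeR and p = 0.114 in the exact permutation test. Without dual replicate 1 it was -0.23, with an adjusted p-value of 0.340. Kcnk6 (ENSMUSG00000046410, chromosome 7, 29221926 to 29232515, minus strand) had 3.91, 4.05, 4.38 and 4.12 CPM with the antagonist and 4.20, 4.73, 4.10 and 4.62 CPM with both ligands. The groups of Kcnk6 overlapped, with a log2 fold change of 0.10 (SE 0.10, 95% interval -0.11 to 0.32, edgeR adjusted p-value 0.735).

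Hvcn1, the voltage-gated proton channel, had the smallest unadjusted p-value of the set. Hvcn1 (ENSMUSG00000064267, chromosome 5, 122206804 to 122242297) had 6.09, 7.01, 7.90 and 6.89 CPM with the antagonist and 8.61, 9.17, 7.60 and 8.50 CPM with both ligands. In the dual group 3 libraries were above all A2A antagonist libraries, and replicate 3 of the dual group lay below replicate 3 of the A2A antagonist group. The log2 fold change was 0.28 (SE 0.09, 95% interval 0.09 to 0.47, unadjusted p-value 0.00689), which was not called over all genes (edgeR adjusted p-value 0.192). The exact permutation test gave p = 0.0571, and 0.0286 is the smallest value the design allows. The count of Hvcn1 is uncertain because 1574 of its 3563 exonic bases (44.2%), between 122238406 and 122241835, overlap exons of Tctn1 on the opposite strand, and 408 of these bases are coding in Hvcn1. Tctn1, a gene of the ciliary transition zone, had 30.1 ± 1.71 CPM in the A2A antagonist group and 31.7 ± 2.79 CPM in the dual group (SD, n = 4), a log2 fold change of 0.07 (edgeR adjusted p-value 0.662). Whether reads of Tctn1 took part in the difference of Hvcn1 was not tested.

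Trpv2 and Trpm2 encode calcium-permeable channels of the TRP family, the latter opened by ADP-ribose and oxidative stress. Trpv2 (ENSMUSG00000018507, chromosome 11, 62574486 to 62600515) had 16.8, 14.9, 17.2 and 16.1 CPM with the antagonist and 16.8, 14.9, 18.7 and 14.8 CPM with both ligands. The highest and the lowest of the 8 libraries were both dual libraries. Its log2 fold change was 0.0057 (SE 0.08, 95% interval -0.15 to 0.16, edgeR adjusted p-value 0.985), and the sign depended on the library left out. Trpm2 (ENSMUSG00000009292, chromosome 10, 77907722 to 77970563, minus strand) had 16.3, 13.1, 15.4 and 13.7 CPM with the antagonist and 15.8, 17.1, 15.3 and 14.0 CPM with both ligands. The groups overlapped over most of their range, and the log2 fold change of Trpm2 was 0.09 (SE 0.08, 95% interval -0.08 to 0.25, edgeR adjusted p-value 0.690).

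Clic1 (ENSMUSG00000007041, chromosome 17, 35049966 to 35058749), which belongs to a family of soluble proteins that can insert into membranes, was the gene of the set whose groups did not overlap. It had 223, 222, 226 and 219 CPM with the antagonist and 215, 214, 216 and 201 CPM with both ligands. All 4 dual libraries were below all 4 A2A antagonist libraries, and 3 of them lay within 2 CPM of each other. Of all genes tested, 7.42% had groups that did not overlap, 3.36% with the dual group higher and 4.06% with it lower. Group means and SDs (n = 4) were 223 ± 2.60 and 211 ± 7.03 CPM. Clic1 thus had a log2 fold change of -0.07 (SE 0.03, 95% interval -0.14 to -0.0055, unadjusted p-value 0.0357), which was not called over all genes in edgeR (adjusted p-value 0.344). The exact permutation test gave p = 0.0286, the smallest value the design allows. The summed level of the 12 microglia markers was also lower in the dual libraries, as given above, and without C1qa the other 11 summed to 222 to 233 FPKM with the antagonist and 221 to 232 FPKM with both ligands. Of the 12, 7 had fitted values below 0 and 5 above, and C1qa was the gene called (lower). Without adjustment Aif1 (-0.21) also passed as lower, and Csf1r, the receptor of a growth factor on which microglia depend, passed as higher (0.11), with 211 to 223 CPM in the A2A antagonist group and 226 to 244 CPM in the dual group, which did not overlap (Aif1 and Csf1r were named after their values were seen). Of the 7 fibroblast markers tested 4 passed as higher without adjustment, where 5.98% of all genes did. Of the 12 astrocyte markers 2 passed as higher and 2 as lower without adjustment (33.3%), where 12.8% of all genes passed. Of the 10 oligodendrocyte lineage markers 1 passed as higher and 1 as lower, with fitted values above 0 for 2 and below 0 for 8. The part of cell composition in the difference of Clic1 was not tested.

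**Figure D4:**
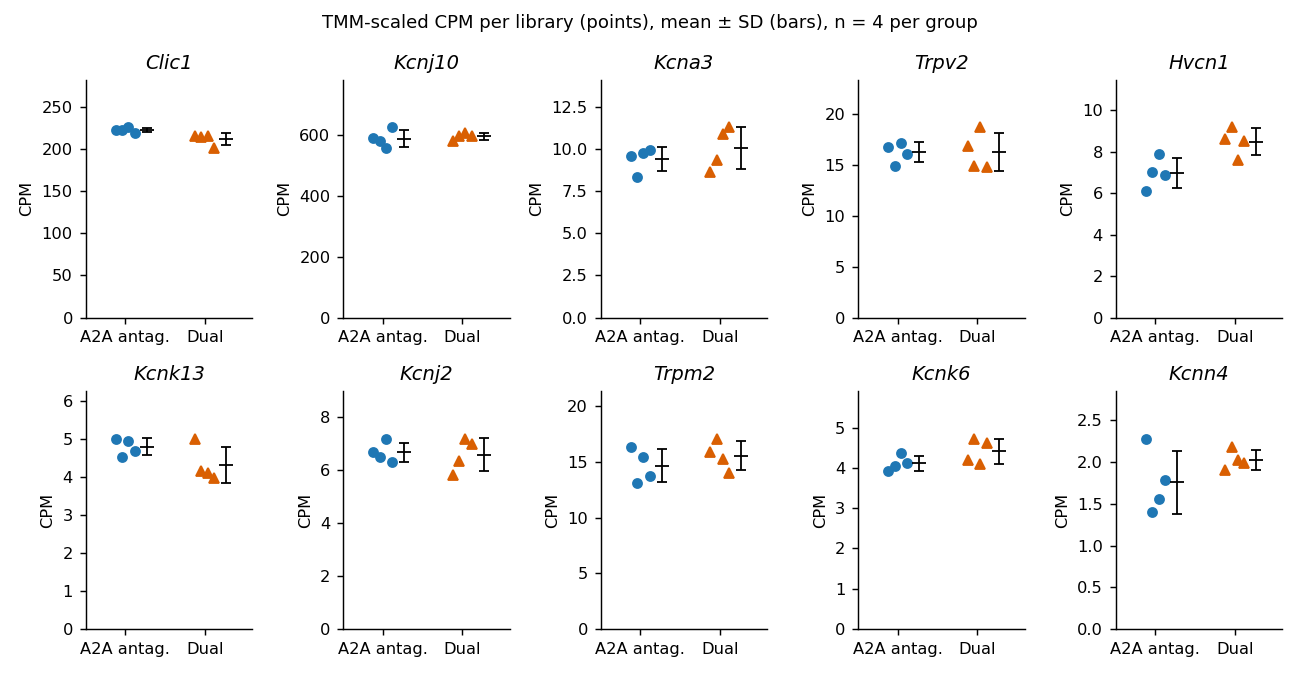
TMM-scaled CPM (linear axes from 0) of each of the 10 genes in the 4 A2A antagonist libraries (circles) and the 4 dual libraries (triangles), with mean ± SD beside the points. Clic1 is the gene whose groups do not overlap, and for Hvcn1 3 of the 4 dual libraries lie above all A2A antagonist libraries.

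The spread within a group was compared with counting error. For Kcnj10 and Clic1 counting error alone gives a coefficient of variation of 0.637% and 1.05%, while Kcnj10 varied by 4.88% among the A2A antagonist and 1.92% among the dual libraries, and Clic1 by 1.17% and 3.32%. For the other 8 genes counting error was between 3.85% (Trpv2) and 11.3% (Kcnn4). Kcnk6 varied by less than counting error (7.52%) in both groups, 4.75% and 7.07%. Kcnk13 varied by 4.75% among the A2A antagonist and 10.9% among the dual libraries, on either side of its counting error of 7.30%. Kcna3 varied by 7.68% and 12.4%, both above its counting error of 4.97%.

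Another 100 ion channel genes gave the setting for these results. Of these, 99 were in the table, 87 passed the low-count filter, and 0 were called by edgeR or by DESeq2, the latter of which gave an adjusted p-value to 48 of them. Without adjustment 11 of the 87 (12.6%) passed 0.05 in edgeR, where 12.8% of all genes did, and 9 (10.3%) in DESeq2, where 11.4% did. By direction, 10 of the 87 (11.5%) passed as higher and 1 (1.15%) as lower in edgeR, beside 5.98% and 6.81% of all genes. The median log2 fold change of the 87 was 0.04. Among the largest rises past the unadjusted threshold were those of Scn7a, a sodium channel gene (0.31, SE 0.15, edgeR adjusted p-value 0.387), and Cacna1d, a calcium channel gene (0.14, SE 0.04, edgeR adjusted p-value 0.164). The only fall was that of Lrrc8a, the essential subunit of the volume-regulated anion channel (-0.13, SE 0.06, edgeR adjusted p-value 0.338).

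By family, 8 of 15 voltage-gated potassium channel genes tested had a fitted value above 0, as did 2 of 5 calcium-activated, 1 of 2 inward rectifier and 2 of 5 K2P genes. Of 22 chloride and volume-regulated anion channel genes 13 were above 0, and of 8 other channels 5. Values above 0 were given to 12 of 12 TRP channel genes (median 0.13) and 15 of 18 calcium entry and release channel genes (median 0.07), where 9664 of the 18756 genes tested were above 0. The TRP count was 12 of 12 under each other scaling and test, and 11 of 12 when replicate 1 or replicate 3 of either group was left out. Of the 13 TRP genes listed, Trpv1 did not pass the low-count filter (0 to 6 counts per library). Its mean was 0.0953 CPM with the antagonist and 0.0371 CPM with both ligands. Past the unadjusted threshold were 1 of the 12 TRP genes (8.33%) and 4 of the 18 calcium entry and release genes (22.2%), all as higher. The 1 of the TRP list was Pkd1, which the list counts with the TRP channels and which is named after its values were seen. Its log2 fold change was 0.12 (edgeR adjusted p-value 0.196). Of all genes tested 12.8% passed, 5.98% as higher. The 3 inositol trisphosphate receptors, which release calcium from the endoplasmic reticulum, were among the 4 and are named after their values were seen. Itpr1 had 74.2 ± 3.05 and 80.7 ± 2.18 CPM (SD, n = 4), Itpr2 67.0 ± 2.20 and 72.8 ± 1.28 CPM, and Itpr3 23.6 ± 0.455 and 26.1 ± 2.02 CPM, in the order antagonist and dual. Their log2 fold changes were 0.12, 0.12 and 0.14, with edgeR adjusted p-values of 0.186, 0.172 and 0.288.

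**Figure D5:**
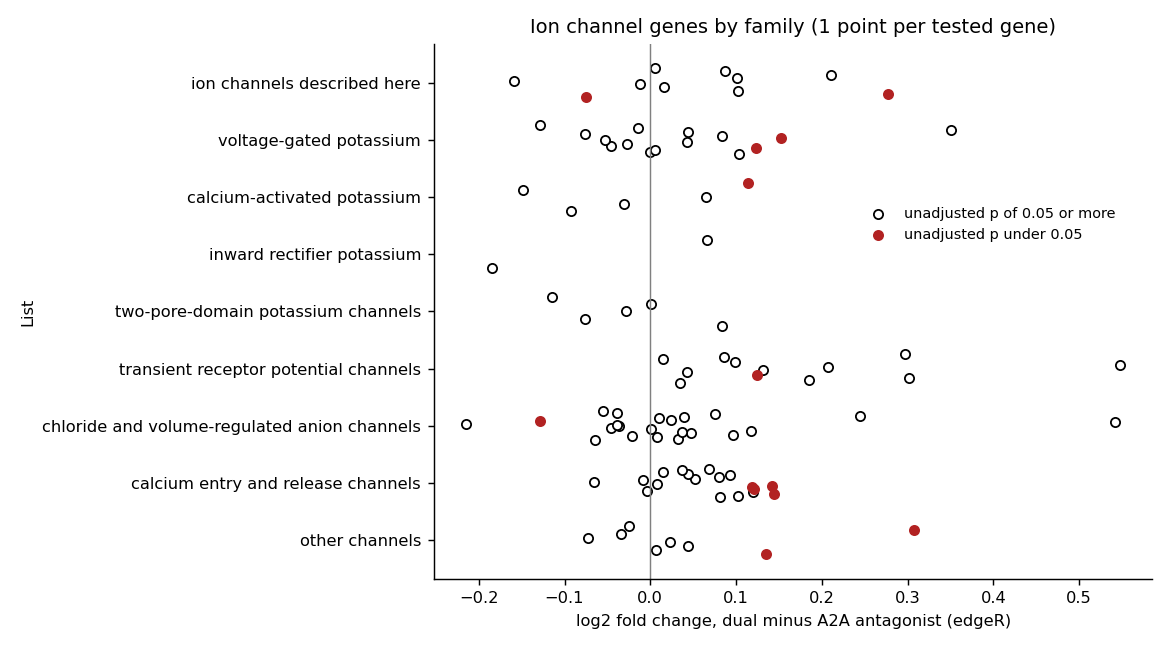
Log2 fold change (dual over A2A antagonist) for the 10 genes described here and the 87 other channel genes tested, 1 point per gene, by family. Filled points have an unadjusted edgeR p-value under 0.05, none has an adjusted one under it, and all 12 tested TRP channel genes of the other list lie above 0.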

How the data were processed

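RNA was sequenced as paired-end reads, and per the methods and labels the authors aligned them with HISAT2 to an Ensembl mouse genome (mm10) and counted them per gene with featureCounts. Whether the counting used strand was not given in the sources used here. The deposited raw counts per gene were used for all tests, and the authors' FPKM (per kilobase of gene length) for levels between genes. The deposited fold changes and p-values were not used, nor were 9 columns of values that carry no sample of this series. The 30302 genes held by both deposited tables had the same A2A antagonist counts (0 differing values). Coordinates equalled GENCODE mouse release 21 (GRCm38) for 97.5% of the identifiers found there and for all 10 channels.

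Counts were filtered (filterByExpr, minimum count 10), scaled with TMM and tested with the quasi-likelihood test of edgeR 4.0.16 (R 4.3.3), dual against A2A antagonist, with no covariate. Two-sided p-values were adjusted by Benjamini-Hochberg over all genes tested (threshold 0.05). Standard errors come from the F statistics. Single genes were also tested with a two-sided exact permutation test of mean CPM (SciPy 1.17.1). The script was tested on simulated data. Alternatives were RLE and upper quartile factors, DESeq2 1.42.0, no filter, a replicate block, each library left out, and other gene lengths. The genes and lists were chosen with earlier results of these data known. All 10 channels are named. Of the other channel genes the rule named any that were called, and the 3 largest rises and falls with an unadjusted p-value under 0.05 and log2 CPM averaging 1 or more, and of the markers the highest and those near 0. Not every gene under this rule is reported here. Intervals cover the spread between libraries, and total counts of 32630602 to 45878639 per library set the counting error.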

Additional observations from a re-analysis of the deposited data

Results flagged for a closer look

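Clic1 in replicate 4 of the dual group was far from the other libraries of its group, with 201 CPM where the other 3 had 214 to 216 CPM. Its gap to the nearest of them was 0.891 of the range of the group, above Dixon's 95% critical value for 4 samples. Of 28 groups of 4 libraries examined this was the 1 that passed that value, which about 1 in 20 would pass by chance. Without that library the log2 fold change of Clic1 was -0.05 with an edgeR adjusted p-value of 0.518.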

How the results depend on the processing

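No ion channel gene of the 10, and none of the 87 other channel genes tested, was called under any of the 13 alternatives of the test. DESeq2 gave an adjusted p-value to only 2 of the 10 and 48 of the other channel genes, so it could not call the rest. Without A2A antagonist replicate 4 or dual replicate 3, 0 genes of the whole table were called. Without A2A antagonist replicate 2 or 3 it was 5 and 6. Those runs therefore say little about the channels. The median log2 fold change over the 10 genes ranged from 0.02 to 0.07 when single libraries were left out. Signs changed only for values near 0: leaving out 1 library moved Kcnj2 between -0.060 and 0.040, Kcnj10 between -0.010 and 0.047, Trpv2 between -0.074 and 0.052 and Kcnj16 between -0.032 and 0.135. With a replicate block, the numbers in the titles taken as pairs, Trpv2 was at -0.0001026, Hvcn1 at 0.28 and Clic1 at -0.07, and again 0 of 10 genes were called. Same-numbered libraries did not deviate together over all genes tested (correlations of -0.0529 to 0.0408 over 4 pairs). The labels do not say whether same-numbered libraries share a culture, and these correlations cannot tell. The block moved the calls over all genes from 39 to 17. The adjusted p-value of Hvcn1 ranged from 0.162 to 0.396 and that of Clic1 from 0.174 to 0.528 over their alternatives. The number of the 10 genes with an unadjusted p-value under 0.05 ranged from 1 to 3. The call count over all genes was 366 without the low-count filter, 417 with DESeq2 and 0 to 172 with 1 library left out. Of the neighbours in the order of levels, 5 were separate with FPKM and 4 to 5 with other lengths. Kcnn4 and the other low genes are limited by their counts.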

Other observations

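Some of the 100 other channel genes were more abundant per gene length than most of the 10 described, and are named after their values were seen. Clic4, of the family of Clic1, had a mean of 82.9 ± 4.85 FPKM (SD over 8 libraries). Gja1, which encodes the gap junction protein connexin 43 of astrocytes, had 30.05 ± 2.89 FPKM. Pkd2, a TRP family channel of cilia and the endoplasmic reticulum, had 19.2 ± 0.460 FPKM, and Lrrc8c, a subunit of the volume-regulated anion channel, 17.2 ± 0.312 FPKM. Among potassium channel genes, Kcnd3 had 11.1 ± 0.474 FPKM, Kcnk2 7.42 ± 0.319 FPKM and Kcnn3 6.03 ± 0.312 FPKM, each above Kcna3 in its mean. Kcnj16 had 1.22 ± 0.179 FPKM. Kcne3 was the gene of the list that the table did not hold, and Kcnq1, Abcc8, Abcc9, Trpv1, Otop1 and Scn9a were listed at 0 in at least 1 library.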
